A study of Mus musculus with 16 samples.

Results

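Doc2g, Cdhr1, Eomes, Tbx21, Th and Calb2 are genes known from neurons of the olfactory bulb, and their signals were followed in RNA of mouse neocortex after removal of the opposite cortex. The 6 genes were taken from the 20134 genes with a value on every array and were chosen by their log2 differences between surgery and control pools in an earlier look at the same arrays, so those differences, given below, describe the genes that were picked and carry no test. For each gene the probe with the highest mean signal was used. The animals were C57BL/6J mice. The paper describes those used for the arrays as male. It also names Xist, an RNA that it ties to X chromosome inactivation, among the genes lower after surgery. The sex of the animals in each pool was not tested, nor was its part in the differences between pools. The cortex of the left hemisphere was removed by suction (hemisuction) either in neonates at P7 (NBH) or in adults (ABH), and the neocortex of the intact right side, rostral from bregma, was collected 1 or 4 weeks later. The NBH pools were therefore taken at P14 and P35, and by the labels the ABH pools were taken at 11 and 15 weeks of age. Control pools of unoperated mice were taken at P7, P14, P35 and 10 weeks. Each of the 8 pools was 1 mixture of RNA from several animals, hybridized once with Cy3 and once with Cy5, which makes 16 arrays. The SD values below are the spread between the 2 dyes of 1 pool and hold no difference between animals.

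In the olfactory bulb, the axons of olfactory sensory neurons end in glomeruli on the dendrites of mitral and tufted cells, the glutamatergic neurons that carry the signal out of the bulb to the olfactory cortex. Local interneurons, the granule and periglomerular cells, shape that output, and they keep being born after birth from neuroblasts that migrate to the bulb along the rostral migratory stream. Doc2g encodes a member of the double C2 domain family, whose relatives act in vesicle release, and Cdhr1 encodes a cadherin-related membrane protein; both are known as mitral and tufted cell genes, Cdhr1 also from photoreceptors. Eomes (Tbr2) and Tbx21 (T-bet) encode T-box transcription factors that mark the same cells, while Eomes is also made by intermediate progenitors of the developing cortex and both by T and NK cells. Th encodes tyrosine hydroxylase, the rate-limiting enzyme of catecholamine synthesis, made by dopaminergic periglomerular cells as well as by midbrain and hindbrain neurons. Calb2 encodes the calcium-binding protein calretinin, which marks another periglomerular class and also a class of cortical interneurons. The labels name neocortex and no olfactory bulb. Of the markers of neocortical projection neurons, 14 of 14 were well above background on both arrays of every pool.

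The promoters of Doc2g and Cdhr1, the pair of genes called lower in 3 of the 4 comparisons, and of Th, which was called in none, are shown. Whether promoter sequence bears on the signals was not tested. The promoters are given 5′ to 3′, each on the strand of its gene. They are RefSeq sequences of the GRCm38.p6 build, from 250 bases before to 50 bases after the start of the gene, and 5 of the 6 genes had one. The Doc2g window is chr19:4003135-4003434 on the plus strand, the Cdhr1 window chr14:37098298-37098597 on the minus strand and the Th window chr7:142899946-142900245 on the minus strand. Capitals mark CG dinucleotides and, in Th, the palindrome TGACGTCA.
Doc2g: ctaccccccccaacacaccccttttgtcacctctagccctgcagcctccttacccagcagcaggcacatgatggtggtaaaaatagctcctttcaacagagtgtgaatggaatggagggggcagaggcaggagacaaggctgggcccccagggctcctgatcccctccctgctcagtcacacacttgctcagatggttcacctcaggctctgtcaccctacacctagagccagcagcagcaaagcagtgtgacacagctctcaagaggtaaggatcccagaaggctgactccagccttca
Cdhr1: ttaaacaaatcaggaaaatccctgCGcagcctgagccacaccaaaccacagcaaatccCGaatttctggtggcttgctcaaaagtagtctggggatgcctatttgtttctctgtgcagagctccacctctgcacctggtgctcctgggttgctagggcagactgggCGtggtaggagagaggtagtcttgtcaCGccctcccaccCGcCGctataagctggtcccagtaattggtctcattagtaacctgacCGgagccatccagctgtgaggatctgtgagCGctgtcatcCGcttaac
Th: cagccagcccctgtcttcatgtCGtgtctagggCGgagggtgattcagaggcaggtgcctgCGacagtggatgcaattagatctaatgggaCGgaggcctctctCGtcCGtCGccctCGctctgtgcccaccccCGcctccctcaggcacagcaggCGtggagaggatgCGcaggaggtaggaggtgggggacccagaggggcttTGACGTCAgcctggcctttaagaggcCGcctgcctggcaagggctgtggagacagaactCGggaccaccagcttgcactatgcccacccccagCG
The Doc2g window held 0 CG dinucleotides, as did 5.43% of the 32851 mouse promoters of the same length, whose median was 7. Cdhr1 had 9, Eomes 10, Th 15 and Tbx21 21, a count that was made after the sequences had been seen. The windows were searched on both strands for 4 motifs, and the only one found was the cAMP response element (TGACGTC) in Th, at -45 to -38 from the start, where the letters read the same on both strands so that both strands match, with overlap. That motif occurs in 3.21% of all promoters and the full palindrome in 1.79%. The T-box half-site (GGTGTGA, in 3.98% of promoters), the TATA box (TATAAA, 13.6%) and the homeodomain core (TAATTA, 5.29%) were in none of the 5 windows.

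Doc2g was well above background on all 16 arrays. Levels are log2 signals relative to the 75th percentile of each array. In the controls Doc2g stood at -2.71 ± 0.33 (SD, n = 2 arrays) at P7, -2.15 ± 0.10 at P14, -1.15 ± 0.10 at P35 and -0.88 ± 0.20 at 10 weeks. The surgery pools stood at -2.03 ± 0.27 (NBH) and -1.88 ± 0.11 (ABH) 1 week after surgery, and at -1.93 ± 0.06 (NBH) and -1.94 ± 0.09 (ABH) after 4 weeks. The P35 and 10 weeks controls were the highest pools with both dyes, and by their means all 4 surgery pools lay in a narrow band between the P14 and P35 controls. From P14 to P35 the control level differed by 1.00 on the log2 scale, whereas from NBH 1 week to NBH 4 weeks, at the same ages, it differed by 0.10 ± 0.20. Among the pools between P14 and NBH 4 weeks in the order of levels, no neighbors differed beyond the spread of the dyes.

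Cdhr1 was also well above background on every array, and its course in the controls was not that of Doc2g. Its level was 0.08 ± 0.03 at P7, -1.32 ± 0.03 at P14, -0.95 ± 0.02 at P35 and -0.68 ± 0.02 at 10 weeks. The surgery pools stood at -1.11 ± 0.07 (NBH) and -1.31 ± 0.10 (ABH) 1 week after surgery, and at -2.05 ± 0.04 (NBH) and -1.36 ± 0.09 (ABH) after 4 weeks. The P7 control was the highest pool and NBH 4 weeks the lowest, with a range of 4.38-fold between them. Of the 7 neighboring steps in that order 5 were larger than the spread of the dyes; the P14 control was separated neither from ABH 4 weeks nor from ABH 1 week, its neighbors.

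**Figure D1:**
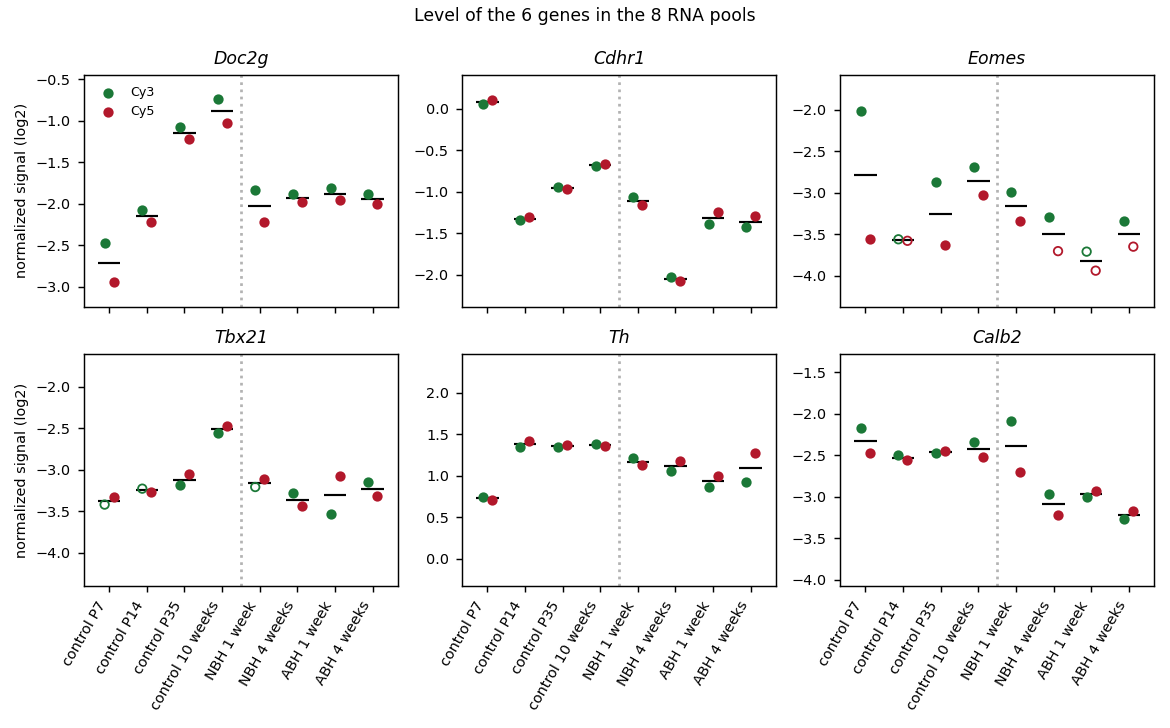
Normalized signal of the 6 genes (log2, relative to the 75th percentile of each array) in the 8 RNA pools, with 1 point per array (Cy3 green, Cy5 red), the mean of the dyes as a line, and open points for arrays on which the spot failed to rise well above background. Each panel spans the same log2 range, and Doc2g in the controls of P35 and 10 weeks lies above all 4 surgery pools, which stand right of the dotted line.

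The T-box genes were detected on fewer arrays. Eomes was well above background on 10 of the 16 arrays and with both dyes in 4 pools, namely the P7, P35 and 10 weeks controls and NBH 1 week. In the controls it stood at -2.79 ± 1.09 at P7, -3.57 ± 0.01 at P14, -3.25 ± 0.54 at P35 and -2.86 ± 0.24 at 10 weeks, and the P7 value was made of -2.01 with Cy3 and -3.56 with Cy5. The surgery pools stood at -3.17 ± 0.25 (NBH) and -3.83 ± 0.16 (ABH) 1 week after surgery, and at -3.50 ± 0.29 (NBH) and -3.50 ± 0.22 (ABH) after 4 weeks. ABH 1 week was the lowest pool, and the highest pools, P7 and 10 weeks, were not separated beyond the spread of the dyes. A further Eomes probe was well above background on 1 array only, that of the 10 weeks control with Cy5.

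Tbx21 was well above background on 13 of 16 arrays. Its levels were -3.37 ± 0.07 at P7, -3.25 ± 0.03 at P14, -3.12 ± 0.10 at P35 and -2.52 ± 0.05 at 10 weeks in the controls. The surgery pools stood at -3.16 ± 0.07 (NBH) and -3.30 ± 0.33 (ABH) 1 week after surgery, and at -3.36 ± 0.11 (NBH) and -3.24 ± 0.12 (ABH) after 4 weeks. The 10 weeks control stood apart from the other 7 pools, 0.61 ± 0.04 above P35, the next pool. The other 7 pools ran from the P7 to the P35 control, and only the step from NBH 1 week to P35 among them was larger than the spread of the dyes. The signal behind these values was low, with a median of 230 (Cy3) and 265.5 (Cy5) intensity units over a local background of 58 and 67 in the 10 weeks control.

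Th was well above background on all arrays. It stood at 0.73 ± 0.02 at P7, 1.38 ± 0.05 at P14, 1.36 ± 0.02 at P35 and 1.37 ± 0.02 at 10 weeks. The surgery pools were at 1.17 ± 0.06 (NBH) and 0.93 ± 0.09 (ABH) 1 week after surgery, and at 1.11 ± 0.09 (NBH) and 1.09 ± 0.25 (ABH) after 4 weeks. The 3 older controls did not differ from each other beyond the spread of the dyes, and the 4 surgery pools lay below them and above P7. Calb2 was likewise measured on all arrays, with -2.33 ± 0.21 at P7, -2.53 ± 0.05 at P14, -2.46 ± 0.02 at P35 and -2.43 ± 0.13 at 10 weeks. The surgery pools stood at -2.39 ± 0.44 (NBH) and -2.97 ± 0.05 (ABH) 1 week after surgery, and at -3.09 ± 0.17 (NBH) and -3.23 ± 0.07 (ABH) after 4 weeks. The last 3 pools were the lowest with both dyes, and the only step in the order of Calb2 levels larger than the spread was the one between ABH 1 week and the P14 control (0.44 ± 0.10).

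A gene was compared where both dyes of the surgery or the control pool detected it well above background, and called higher at 1.5-fold or more, or lower at 0.75-fold or less, with both dyes. At 1 week after neonatal surgery 5 of the 6 genes could be compared with the P14 control and 0 were called, against 0.427% of 15469 genes called lower, 0.472% called higher and 0.899% called in all. Doc2g differed by 0.12 ± 0.17, Cdhr1 by 0.21 ± 0.10, Th by -0.22 ± 0.11 and Calb2 by 0.14 ± 0.39 (surgery minus control, log2). Eomes, not well above background in the control, was 1.32-fold higher with the control taken at its own dim signal, with the dyes at 0.57 and 0.24. Tbx21 was not well above background with both dyes in either pool. The median of the 5 genes was 0.14, beside 0.06 over all genes compared.

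At 4 weeks after neonatal surgery, 3 of the 6 genes were called lower than in the P35 control, where 0.75% of 15873 genes were called lower, 0.214% higher and 0.964% in all. Cdhr1 was 2.14-fold lower (-1.08 with Cy3 and -1.11 with Cy5), Doc2g 1.72-fold lower (-0.80 and -0.75) and Calb2 1.55-fold lower (-0.49 and -0.77). Only 15 genes of all those compared had a lower value than Cdhr1. The remaining genes were below 0 with both dyes but not called, with Eomes at -0.24 ± 0.24 (a bound, since NBH 4 weeks was above background with Cy3 only), Tbx21 at -0.24 ± 0.21 and Th at -0.24 ± 0.07. The median over the 6 genes was -0.44 and over all genes 0.04. The 3 genes were 2.52% of the 119 genes called lower.

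At 1 week after adult surgery 4 of the 6 genes were called lower than in the 10 weeks control, in a comparison in which 6.37% of 16320 genes were called lower, 4.44% higher and 10.8% in either direction. Doc2g was 2.00-fold lower (-1.07 with Cy3 and -0.93 with Cy5), Tbx21 1.73-fold lower (-0.98 and -0.60) and Cdhr1 1.55-fold lower (-0.69 and -0.58). The call of Cdhr1 was lost with scaling by the median (-0.38) and that of Tbx21 with quantile normalization (-0.48). Eomes, not well above background in ABH 1 week, was at least 1.94-fold lower. Calb2 at -0.54 ± 0.18 and Th at -0.44 ± 0.11 passed the limit with Cy3 and not with Cy5. Wide changes were present in this pool, so that 632 genes had a lower value than Cdhr1 and 73 a lower one than Doc2g. The 4 genes made up 0.385% of the 1039 genes called lower, and the medians were -0.71 over the 6 genes and -0.08 over all genes.

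At 4 weeks after adult surgery 5 of the 6 genes were called lower than in the same 10 weeks control, where 0.196% of 16294 genes were called lower, 0.43% higher and 0.626% in all. Doc2g was 2.08-fold lower (-1.14 with Cy3 and -0.98 with Cy5), and 2 genes of all those compared had a lower value. Calb2 was 1.74-fold lower (-0.94 and -0.66), Tbx21 1.65-fold lower (-0.60 and -0.85) and Cdhr1 1.61-fold lower (-0.74 and -0.63). Eomes was 1.56-fold lower, with ABH 4 weeks taken at its own signal, which was well above background on 1 array only. These 5 genes made up 15.6% of the 32 genes called lower in ABH 4 weeks. That share depends on the processing, since with 5 of the 6 genes called each time the number of genes called lower was 119 with the processed signal, 101 with offset 0 and 255 without scaling. Th was at -0.46 with Cy3 and -0.09 with Cy5 and was not called. The median was -0.70 over the 6 genes and 0.07 over all genes.

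**Figure D2:**
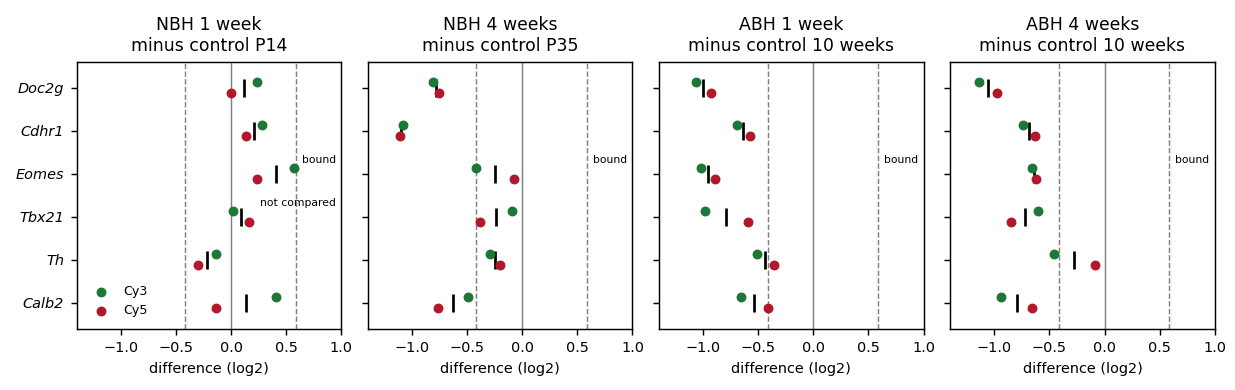
Difference between each surgery pool and its control (log2) for the 6 genes, with 1 point per dye (Cy3 green, Cy5 red), the mean of the dyes as a black tick and the limits for a call (1.5-fold higher, 0.75-fold) as dashed lines. Doc2g and Cdhr1 lie left of the lower limit with both dyes in every panel but that of NBH 1 week, and Th in no panel.

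Both ABH comparisons use the 1 pool of the 10 weeks control, in which Doc2g and Tbx21 had their highest levels, so their values are not independent of each other. When the P35 control was put in its place, Doc2g was still called lower in both ABH pools, whereas Cdhr1 and Tbx21 were called in neither and Tbx21 then differed by -0.18 in ABH 1 week and -0.11 in ABH 4 weeks. The count went from 4 to 2 in ABH 1 week and from 5 to 2 in ABH 4 weeks. The age of the ABH pools (11 and 15 weeks) also differs from that of their control, and age and surgery cannot be told apart there. On each slide the controls lay in the first row and the surgery pools in the second, so position and surgery cannot be told apart either. In tissue RNA, fewer cells of a type and less RNA per cell cannot be told apart.

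**Figure D3:**
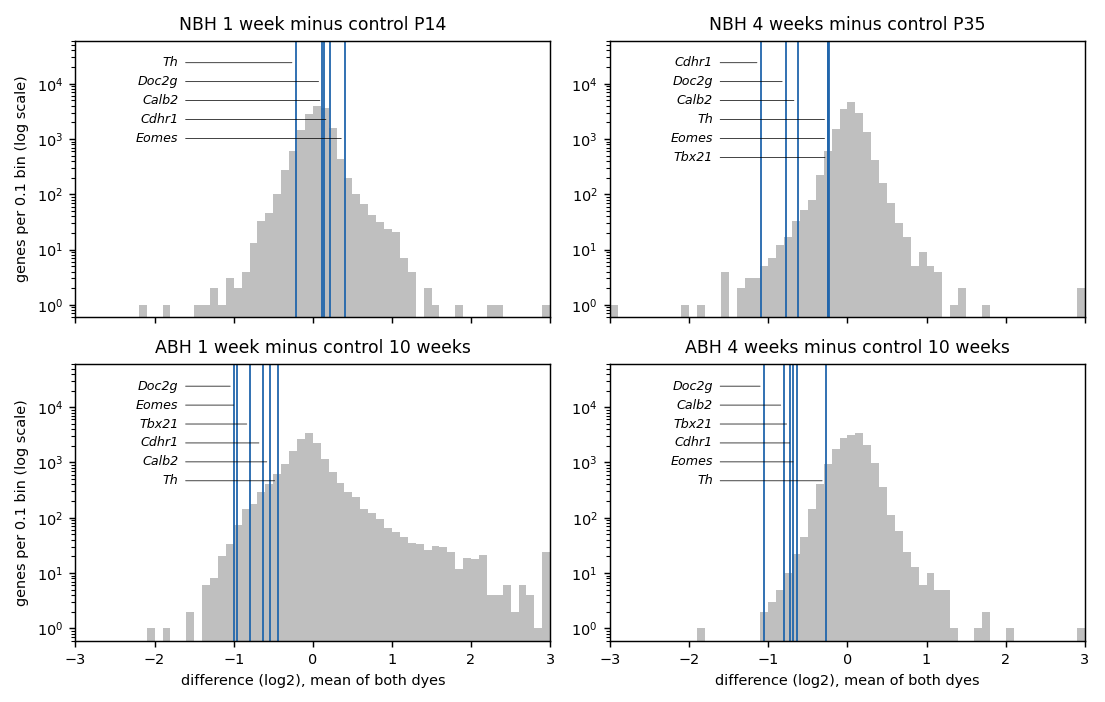
Number of genes (log scale) per bin of 0.1 of the log2 difference between surgery and control pool, mean of both dyes, for all genes compared, with the 6 genes as blue lines; the end bins also hold the values beyond 3. In ABH 4 weeks 5 of the lines lie in the sparse left tail, in NBH 1 week none does, and in ABH 1 week the whole distribution is wider. The 6 genes were chosen by these differences, so their place carries no test.

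The other known genes of the same cells were taken as lists, each described by counts. Of 12 further genes of mitral and tufted cells 10 could be compared, and 0 of these 10 were called in any of the 4 comparisons. Their medians after neonatal surgery were 0.16 at 1 week and 0.00 at 4 weeks, and after adult surgery -0.17 and 0.04. The list includes Tbr1, a T-box factor that differed by 0.27 in NBH 4 weeks and 0.11 in ABH 4 weeks, Reln (reelin, an extracellular matrix protein, 0.23 and 0.07), Slc17a6 (a vesicular glutamate transporter, -0.06 and -0.10) and the neuropeptide gene Cck, most of which cortical neurons make too. Cck, 1 of the 10, was saturated on all 16 arrays, so a difference in it could not have been seen. Uncx and Lhx1, both homeobox genes, differed by -0.48 and -0.52 in ABH 1 week and were not called. Lhx5 and Barhl2 were not well above background with both dyes in any pool. The cells behind the signals of the 6 genes were not tested, so the genes are called here by their names and not by a cell type.

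Among 18 further genes of bulb interneurons 17 could be compared. Sp8, a zinc finger transcription factor of these interneurons and their neuroblasts, was called lower in NBH 4 weeks (-0.66 ± 0.12) and in ABH 1 week (-0.53 ± 0.10), and was at -0.37 in ABH 4 weeks, not called. Dlx5, a homeobox gene of forebrain interneurons, was called lower in NBH 4 weeks (-0.46 ± 0.02). Slc32a1, the vesicular GABA transporter and the gene of the list with the highest signal, differed by 0.39 in ABH 4 weeks and was not called. It was saturated on 1 array each of the P14 control, the P35 control and NBH 1 week. The list's median was -0.14 in NBH 4 weeks and 0.10 in ABH 4 weeks. Of 8 genes of migrating neuroblasts, Prokr2, a receptor needed for their way into the bulb, was called lower in NBH 4 weeks (-0.55 ± 0.18) and Cd24a, a surface protein, higher in ABH 1 week (1.01 ± 0.01).

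The enzymes and transporters around Th were 11 genes, all of which were compared and 0 of which were called in any comparison. A count of 0 among 11 is near the share called over all genes, 0.626% to 10.8% by comparison. Ddc, which makes dopamine from L-DOPA, was at -0.35 in NBH 4 weeks and 0.39 in ABH 4 weeks, and Slc6a3, the dopamine transporter, at 0.01 and 0.20. Gch1, which starts the synthesis of the cofactor of Th, was at 0.58 in ABH 1 week and was not called. Of 10 markers of midbrain and hindbrain catecholamine neurons, Foxa1, Foxa2, En1 and Slc6a2 were not well above background with both dyes in any pool, and 0 of the 4 or 5 compared were called. The summed signal of that list, as log2 relative to the 75th percentile, ranged from 0.33 to 1.02 in the controls, 0.40 to 0.73 in the NBH pools and 0.12 to 0.38 in the ABH pools. Its part in the Th values was not tested.

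For the genes that share Calb2's or Eomes's other known cell types, 0 of 11 markers of cortical interneurons were called in any comparison, including Vip, which was at 0.33 in NBH 4 weeks and -0.15 in ABH 4 weeks, and Sst, at -0.13 in ABH 4 weeks and saturated on 1 array of the P35 control. Over all genes 0.626% to 10.8% were called in a comparison, so 0 calls in lists this short are near that share. Of 7 genes of intermediate progenitors 0 were called in 3 of the comparisons. In ABH 1 week Neurog1 (-0.92 ± 0.31) and Neurog2 (-0.54 ± 0.05), proneural factors, were lower and the proliferation gene Mki67 was higher (2.06 ± 0.10). Of 13 T and NK cell genes Cd3d, Ncr1, Klrb1c, Klrd1 and Ifng were not well above background with both dyes in any pool. Cd8a was called lower in ABH 1 week (at least 2.47-fold) and Cd3e in NBH 1 week (-0.43 ± 0.02), and 0 of the list were called in NBH 4 weeks and ABH 4 weeks. Their part in the Eomes and Tbx21 values was not tested.

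Family relatives were mostly without calls. Doc2b, a calcium sensor of vesicle release, was called lower in NBH 4 weeks (-0.47 ± 0.02) and was at 0.37 in ABH 4 weeks, and Doc2a was at 0.22 and -0.24. Cdhr5 was called lower in ABH 1 week (at least 1.75-fold). No other relative was called in any comparison.

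Markers of tissue next to the sampled cortex were also called, but not in all of the same pools. Of 10 striatal genes 7 were called lower in NBH 4 weeks, among them Drd1 (-0.81 ± 0.01) and Tac1 (-0.74 ± 0.02), and 6 were called higher in ABH 4 weeks, among them Rgs9 (1.15 ± 0.20) and Adora2a (1.13 ± 0.53). Summed over the list the striatal level was 5.03 to 7.33 in the controls, 6.74 to 6.97 in the NBH pools and 6.81 to 7.44 in the ABH pools. Of 10 choroid plexus genes 8 were called higher in NBH 1 week, 4 in NBH 4 weeks and 8 in ABH 4 weeks, with Ttr, which encodes transthyretin, 92.4-fold, 29.9-fold and 53.5-fold higher. In ABH 1 week 1 of 8 was called higher and 1 lower. The summed choroid plexus level was 0.93 to 1.59 in the controls, 4.13 to 5.20 in the NBH pools and 1.07 to 4.85 in the ABH pools, and Kcne2 was not well above background with both dyes in any control. Doc2g and Cdhr1 were called lower in NBH 4 weeks, where striatal genes were lower, and in ABH 4 weeks, where striatal genes were higher. Both were also called lower in ABH 1 week, where 0 of 10 striatal genes were called, beside 10.8% of all genes compared. The part of these tissues in the values of the 6 genes was not tested. Oxt, an oxytocin gene of the hypothalamus, was 12.2-fold lower in NBH 4 weeks. Of neocortical projection neuron genes, Bcl11b was called lower in NBH 4 weeks (-0.48 ± 0.02), and 1 of the 14 genes was called lower in that comparison and 1 in ABH 4 weeks.

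Some genes of the olfactory input were called in NBH 4 weeks and in ABH 1 week. In NBH 4 weeks 1 of 7 sensory neuron genes and 1 of 4 ensheathing glia genes were called lower, beside 0.75% of all genes. In ABH 1 week 1 of 7 was called lower and 1 of 4 higher, beside 6.37% and 4.44% of all genes. Of 8 olfactory sensory neuron genes, Ano2, a chloride channel of the transduction cascade, was called lower in NBH 4 weeks (-0.78 ± 0.03) and Rtp1, which brings odorant receptors to the membrane, in ABH 1 week (at least 1.49-fold). Of 4 ensheathing glia genes Ngfr, a neurotrophin receptor, was called lower in NBH 4 weeks (-0.86 ± 0.04) and Fabp7, a fatty acid binding protein of glia, higher in ABH 1 week (1.52 ± 0.07). Of thalamic genes, Zic1 was called lower in NBH 4 weeks (-0.63 ± 0.02) and Prkcd higher in ABH 1 week (1.06 ± 0.10). The part of these cell types in the values of the 6 genes was not tested.

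**Figure D4:**
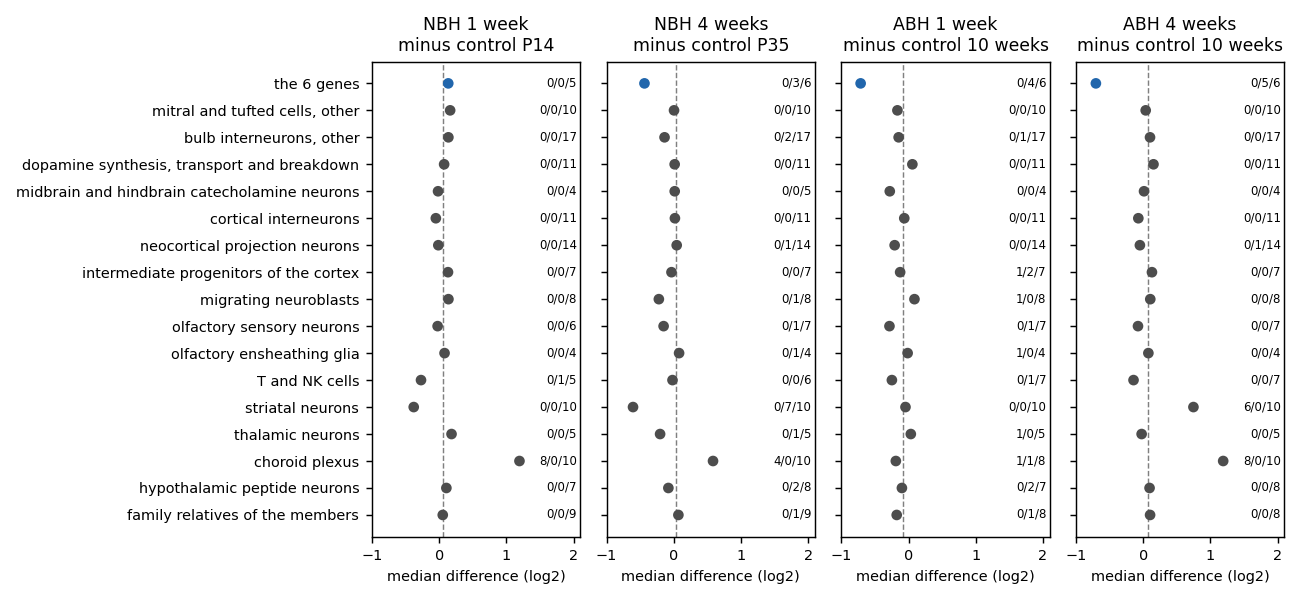
Median difference between surgery and control pool (log2) over the genes compared in each list, with the 6 genes in blue, the median of all genes as a dashed line, and at the right the number called higher, called lower and compared. The 6 genes have the lowest median of the lists shown in ABH 1 week (-0.71) and ABH 4 weeks (-0.70), and the striatal list has the lowest in NBH 4 weeks (-0.61). The 6 genes were chosen by these differences, so their place among the lists carries no test.

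The patterns of the 6 genes over the 8 pools were not alike. Over the 15 pairs Pearson's r ran from -0.33 to 0.80. Between Doc2g and Tbx21 it was 0.80, between Cdhr1 and Calb2 0.72 and between Cdhr1 and Eomes 0.78, and between Doc2g and Cdhr1 -0.13 (n = 8 pools, which share arrays and scaling, as a description). Among 4805 genes that varied over the pools, those most like Doc2g were N4bp1 (0.95), Ms4a15 (0.93) and Dgkg (0.90), and Ms4a15 was well above background with both dyes in 2 pools. Most like Cdhr1 were Sp8 (0.92), Pdcl3 (0.89) and Ngfr (0.88), each of which, as Cdhr1, was highest in control P7 and lowest in NBH 4 weeks. Most like Th were Ms4a5 (0.98), Per1 (0.97) and Cit (0.97), and most like Calb2 were Arhgap36 (0.87), Chn2 (0.83) and Adcy8 (0.81). For Eomes they were Rhcg (0.87), Tenm2 (0.84) and Fam205c (0.84), with Cy5 alone at 0.52, 0.29 and 0.13, and for Tbx21 they were Rhbdd1 (0.92), Ccdc78 (0.89) and Ms4a15 (0.89). Rhbdd1 was at 0.45 with Cy3 alone and well above background with both dyes in 3 pools, and Ccdc78 in 2.

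The 16 arrays had median signals of 192.5 to 253 intensity units over a local background of 59 to 72, and 60.2% to 72.2% of the probes were well above background. None of the 6 genes was saturated on any array. The number of arrays, 1 per pool and dye, limits the precision of every value.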

How the data were processed

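RNA from 8 pools of mouse neocortex was measured on 16 one-color Agilent whole genome arrays, 1 with Cy3 and 1 with Cy5 per pool. The authors scanned the arrays with Agilent Feature Extraction (version 11.0.1.1 in the submitters' notes), and the deposited tables hold spot intensity in fluorescence units, as median signal and median local background, as well as a processed, background-subtracted signal; the file headers name the mm9 build. The values of the labeled channel were background-corrected with normexp (limma 3.58.1, R 4.3.3, offset 50), log2 transformed and set relative to the 75th percentile of each array over the gene spots. Outlier spots (140 to 237 per array) were dropped, spots of a probe averaged, and probes named by RefSeq accession, which gave 20145 genes, 20134 of them with a value on every array. A bound holds the dim pool at the lowest signal well above background of its array, or at its own signal if that was higher.

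With 1 pool per group there was no test and no p-value. The 6 genes, the 16 other gene lists and the rules were chosen with earlier results of these data known. Genes named were the 6 genes, the called genes of each list (up to 4 of them, with the largest change), the gene with the highest signal, and the 3 genes most like each of the 6 over the pools; other genes were chosen after their values were seen. Genes searched for likeness had an SD of at least 0.3. The calling was tested on simulated data. Alternatives were another signal, offset, scaling, background filter, limits, control pool, dye and probe rule. No animals were measured singly. Some genes of the lists are not reported here.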

Additional observations from a re-analysis of the deposited data

Results flagged for a closer look

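Cdhr1 lay above its control with both dyes in NBH 1 week (0.21) and below it with both dyes in ABH 1 week (-0.64), a gap of 0.85 on the log2 scale between neonatal and adult surgery at the same interval. It also lay below its control with both dyes in NBH 4 weeks (-1.10), a gap of 1.31 from NBH 1 week. Eomes was above its control with both dyes in NBH 1 week (0.41) and below it in ABH 1 week (-0.96), a gap of 1.36. The P14 control and ABH 1 week were not well above background, so both values rest on a dim pool. None of these 3 differences was tested, because each pool stands for 1 mixture of RNA.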

How the results depend on the processing

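Doc2g was called lower in NBH 4 weeks, ABH 1 week and ABH 4 weeks under all 13 settings of signal, scaling, filter, dye, probe or control tried for each, but with 2-fold limits in none of them, and no called change of the 6 genes turned its direction. In NBH 1 week 0 genes were called in every setting. The number called lower in NBH 4 weeks went from 3 to 5 with the authors' value table without scaling, to 5 with the 10 weeks control and to 1 with 2-fold limits. With 2-fold limits it was 0 in ABH 1 week (from 4) and 0 in ABH 4 weeks (from 5), and with the P35 control it was 2 in each. The median over the 6 genes in NBH 4 weeks (-0.44) became -0.98 with the processed signal, -0.71 with offset 0, -0.65 without scaling, -0.53 with quantile normalization, -1.21 with the value table, -0.63 with genes above background on all arrays and -0.76 with the 10 weeks control. In ABH 1 week (-0.71) it became -0.99 with the processed signal, -0.45 with scaling by the median, -0.53 with quantile normalization, -0.89 with the value table and -0.46 with the P35 control. In ABH 4 weeks (-0.70) it became -1.19 with the processed signal, -1.10 with offset 0, -0.85 without scaling, -0.75 with scaling by the median, -0.77 with quantile normalization, -1.35 with the value table and -0.34 with the P35 control. With 1 dye alone the medians ranged from -0.57 to -0.45, -0.84 to -0.59 and -0.70 to -0.65. The cause of these shifts was not tested. Scaling by the median moved the median of all genes in ABH 1 week from -0.08 to 0.18 and the share of lower among called genes from 58.9% to 19.8%; without scaling that share went from 31.4% to 90.1% in ABH 4 weeks. In ABH 1 week Cdhr1 was not called with scaling by the median (-0.38) nor Tbx21 with quantile normalization (-0.48), and in ABH 4 weeks Eomes was not called with the mean of all probes (-0.40). With the P35 control Cdhr1, Eomes and Tbx21 were called in neither ABH pool. The uncalled values of Doc2g and Calb2 in NBH 1 week changed sign among settings. Background correction of the mean signal was not run, since the tables used here hold the median signal. No paired analysis was possible because each group is 1 pool and has no test; each difference was already taken within 1 dye.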
